A study of Drosophila melanogaster and Drosophila yakuba and Drosophila virilis with 6 samples.

Results

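The 8 genes described here belong to the Wnt signalling pathway of flies: the ligands wg, Wnt4, Wnt5 and Wnt6, the receptors fz2 and fz3, the inhibitor nkd and the transducer arm. They were chosen by gene identifier, and they are 8 of 13646 genes that held tags under a D. melanogaster identifier in at least 1 library. The tissues were the eye-antennal disc and the wing disc, taken from larvae that had left the food at the end of the last larval stage. The species were D. melanogaster, of the CantonS strain, D. yakuba, and the more distantly related D. virilis, whose strains the labels do not give. Each disc of each species had 1 library, 6 in all, made by tag profiling: NlaIII cuts a transcript, and a short tag next to a cut is sequenced and counted. No genetic change or treatment is part of the design, and the labels do not say how many larvae or discs went into a library. A level is given in CPM, which is the number of a gene's tags in every 1000000 tags of its library and is not scaled by gene length.

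In Wnt signalling a secreted, lipid-modified ligand binds a Frizzled receptor together with a co-receptor. Without ligand, a complex of Axin, APC and kinases marks Armadillo, the fly beta-catenin, for destruction; with ligand, Armadillo builds up, enters the nucleus and turns on target genes through the factor Pangolin. Imaginal discs are the larval epithelia that form adult body parts. In the wing disc Wingless (wg) patterns the margin of the wing and the body wall part of the disc. In the eye-antennal disc it holds back the start of eye differentiation at the disc's edges and takes part in patterning head cuticle and antenna.

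D. melanogaster gave 2207612 tags from eye-antennal discs and 1860370 from wing discs, D. yakuba gave 5673047 and 2200615, and D. virilis gave 2065918 and 3132492. All measured marker genes of the eye-antennal disc (ey, toy, eya, so, gl) were higher in that disc in every species, with summed levels of 2306 against 82.2, 1956 against 161 and 1856 against 53.6 CPM (eye-antennal against wing, species in the order above). Of the wing disc markers, vg, nub and Dr were higher in the wing disc in every species. No tags stood under the current identifier of ap, so ap was not measured. The 3 measured markers summed to 19.5, 7.58 and 7.74 CPM in the eye-antennal libraries, against 263, 184 and 131 in the wing libraries. Genes of other larval organs differed between the libraries too. Summed fat body markers (Lsp1beta, Lsp1gamma, Lsp2, Fbp1) stood at 12527, 2232 and 138 CPM in the eye-antennal libraries of the 3 species, against 22820, 24157 and 7337 in the wing libraries. Summed brain and ring gland markers (nerfin-1, Ilp2, phtm, spok) stood at 330, 478 and 34.9 CPM in the eye-antennal libraries, against 6.45, 3.64 and 2.55 in the wing libraries. Summed salivary gland markers (Sgs3, Sgs5, Sgs8) stood at 149, 229 and 1.94 CPM in the eye-antennal libraries, against 2575, 155 and 0.638 in the wing libraries. Mhc had no tags under its current identifier, so it was not measured. The other muscle markers (Mlc2, Tm2) stood at 1220, 73.5 and 375 CPM, against 355, 25.4 and 1264 in the wing libraries. The part of these other organs in the results on the 8 genes was not tested. In whole discs, fewer cells that express a gene and less RNA per cell cannot be told apart.

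In the BDGP6.54 annotation Wnt4, wg and Wnt6 lie near each other on chromosome arm 2L, and the other members lie on 3L and X. Wnt4 (FBgn0010453) spans 2L:7255419-7277171 on the minus strand. The gene wg (FBgn0004009 in the files) spans 2L:7307159-7316265 and Wnt6 (FBgn0031902) spans 2L:7333714-7352542, both on the plus strand. The receptor gene fz2 (FBgn0016797) spans 3L:19140975-19235373 and nkd (FBgn0002945) spans 3L:19003741-19045449, both on the minus strand. On the X chromosome fz3 (FBgn0027343) spans 769945-784222 on the plus strand, arm (FBgn0000117) spans 1891401-1900646 on the minus strand, and Wnt5 (FBgn0010194) spans 18501401-18505405 on the minus strand. The build behind the files' own tag positions is not given in the sources used here, so tag positions are given below only relative to each other.

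Most of a gene's tags in D. melanogaster came from 1 position. That leading position held 69 of 81 eye-antennal tags and 82 of 98 wing tags of wg, 273 of 284 and 93 of 99 tags of Wnt6, 474 of 535 and 677 of 782 tags of fz2, 335 of 348 and 149 of 155 tags of nkd, and 1724 of 1795 and 1033 of 1091 tags of arm. For D. yakuba and D. virilis the authors deposited 2 tables per library. The first, a gene mapping, lists positions with a gene of that species and its D. melanogaster counterpart. The second, a genome mapping, also gives a D. melanogaster position for each tag position. By that table the leading D. yakuba position lay at the very base of the leading D. melanogaster position for Wnt4, Wnt5, Wnt6, fz2 and nkd, 5 of the 8 genes. It lay 33 bases away for fz3, 185 bases away for wg and 2982 bases away for arm. In D. virilis only Wnt6 (1 of 8 genes) had its leading position of that table at the same base. For fz3, nkd and arm, however, the table does not give the gene the D. virilis position that leads in the gene mapping. Those positions held 64 and 66 tags of fz3, 149 and 164 of nkd, and 455 and 570 of arm (eye-antennal and wing). They were therefore not compared, and the leading D. virilis position of Wnt4 rested on 1 and 1 tags.

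**Figure D1:**
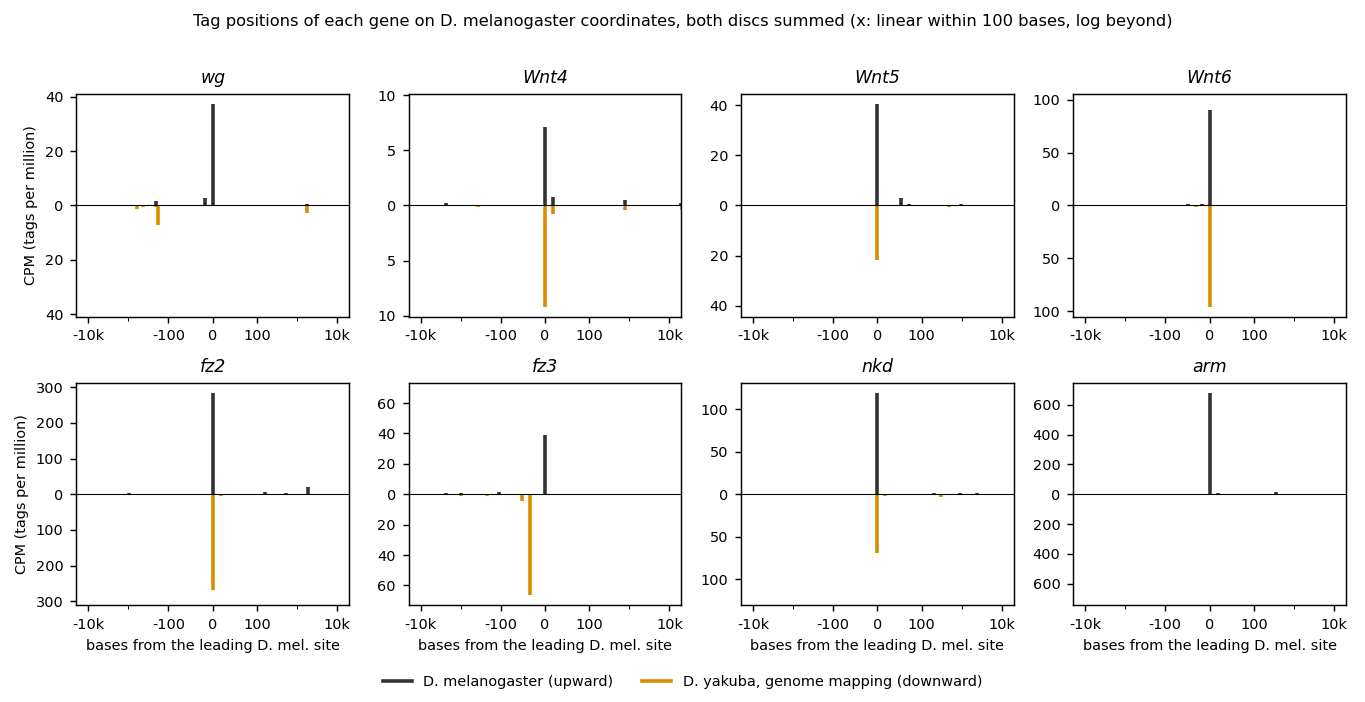
CPM at each tag position of the 8 genes, by distance in bases from the leading D. melanogaster position, with both discs of a species summed; black lines point up for D. melanogaster and orange lines down for D. yakuba (CPM within its genome mapping). The lines meet at 0 for Wnt4, Wnt5, Wnt6, fz2 and nkd, stand apart for wg and fz3, and for arm the D. yakuba lines are too short to see (45 and 13 tags in all).

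Those tables also determine what can be read of fz2 and nkd outside D. melanogaster. In the gene mapping fz2 held 4 and 1 tags in the D. yakuba eye-antennal and wing libraries, and nkd held 0 and 0. The genome mapping of the same libraries held 1404 and 851 tags of fz2 and 426 and 198 tags of nkd. The gene mapping lists none of those fz2 positions, and it lists only 4 of the 426 eye-antennal and 1 of the 198 wing tags of nkd, under another gene. From 18 Mb of the D. yakuba arm on, the gene mapping lists 41.9% and 40.3% of the D. yakuba positions of the genome mapping (eye-antennal and wing), against 86.5% and 86.4% for all of 3L and between 95.5% and 99.3% on the other arms. In D. virilis 393 and 724 tags that the genome mapping gives to fz2 stand in the gene mapping under a D. virilis gene without a D. melanogaster counterpart, or under no gene. For fz2 in both species and nkd in D. yakuba the levels below therefore use a combined mapping, which adds the gene of the genome mapping where the gene mapping names no D. melanogaster gene. This combination was chosen after the levels were seen.

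**Figure D2:**
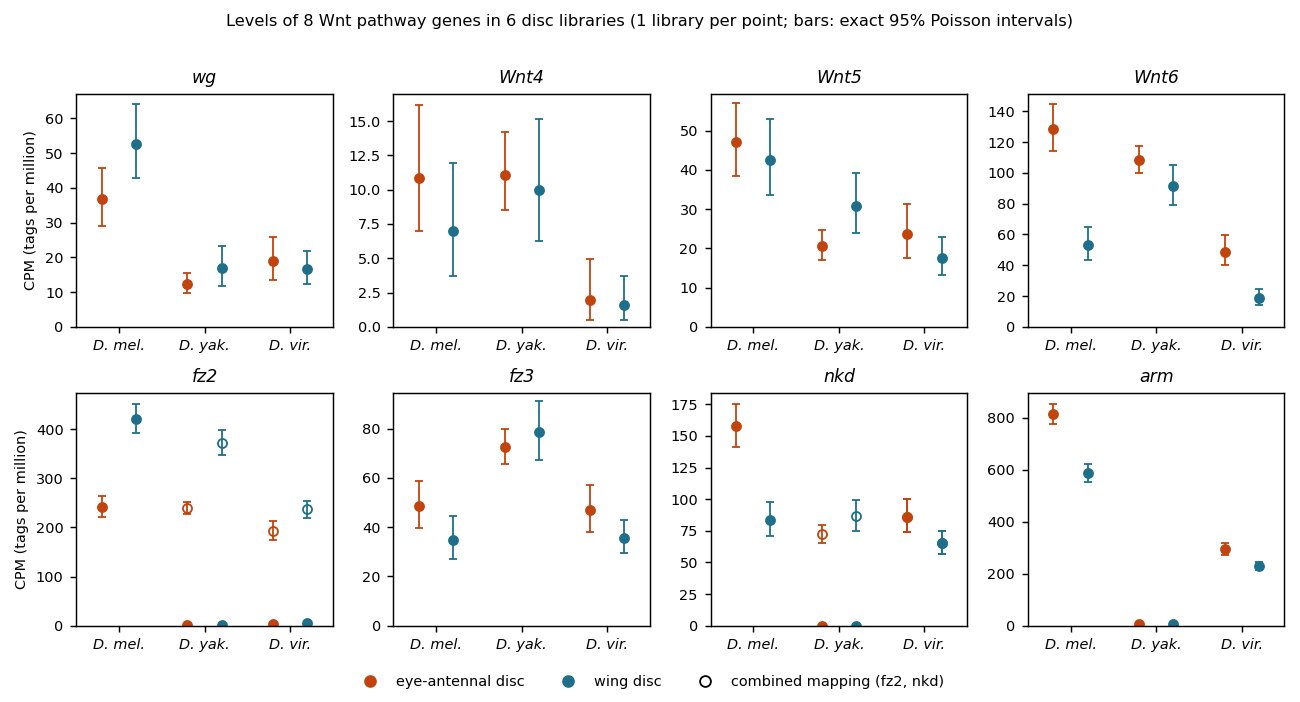
Level of each gene in CPM (vertical axes from 0) in the eye-antennal (red) and wing (blue) library of each species, with exact 95% Poisson intervals that cover counting error only; open circles show the combined mapping of fz2 and nkd. The wing library is above the eye-antennal library for fz2 in all 3 species, and D. yakuba arm lies near 0.

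The ligand gene wg had 36.7 CPM in the eye-antennal disc of D. melanogaster and 52.7 in its wing disc. D. yakuba discs had 12.3 and 16.8 CPM, and D. virilis discs had 18.9 and 16.6, eye-antennal given before wing. After scaling for library composition (TMM), the eye-antennal over wing ratio was 0.634 in D. melanogaster (exact 95% interval 0.467 to 0.860), 0.706 in D. yakuba (0.468 to 1.08) and 0.976 in D. virilis (0.627 to 1.51). Thus wg was lower in the eye-antennal disc of D. melanogaster beyond counting error, while the intervals of D. yakuba and D. virilis held 1. Both D. melanogaster libraries stood above the libraries of the other species, and the lower of them, the eye-antennal library, was 1.94-fold above the next one (1.31 to 2.93). The 4 libraries of D. yakuba and D. virilis, in order of level, did not differ from their neighbours beyond counting error. Libraries of different species further apart in that order were not compared.

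Wnt6, a neighbour of wg on 2L that is needed for the maxillary palps, which arise from the eye-antennal disc, had the highest eye-antennal over wing ratio of the 8 genes in D. melanogaster and in D. virilis. Its level was 129 CPM in the eye-antennal disc and 53.2 in the wing disc of D. melanogaster, with a ratio of 2.20 (1.74 to 2.80). In D. virilis it was 48.9 and 18.8 CPM, with a ratio of 2.23 (1.60 to 3.13). In D. yakuba the discs were closer, at 109 and 91.3 CPM and a ratio of 1.14 (0.974 to 1.35). The D. melanogaster ratio was 1.92 times that of D. yakuba (1.44 to 2.57), and the D. yakuba ratio was 0.513 times that of D. virilis (0.352 to 0.744). All 3 species read Wnt6 mainly at the same base, with 273 eye-antennal and 93 wing tags there for D. melanogaster, 568 and 192 for D. yakuba, and 83 and 56 for D. virilis. At that base D. yakuba had 99.2 and 86.0 CPM in its 2 discs, so the smaller disc difference in D. yakuba was present at the shared position itself.

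Wnt5, whose protein signals through Derailed, a receptor of the Ryk family, in axon guidance of the embryo, had 47.1 and 42.5 CPM in the eye-antennal and wing discs of D. melanogaster. D. yakuba had 20.6 and 30.9, and D. virilis had 23.7 and 17.6. The ratios were 1.01 (0.747 to 1.37), 0.642 (0.472 to 0.879) and 1.16 (0.772 to 1.74). Wnt5 was thus lower in the eye-antennal disc of D. yakuba beyond counting error, and the intervals of the other species held 1. Wnt4, a neighbour of wg, was a gene of few tags, with 24 eye-antennal and 13 wing tags for D. melanogaster, 63 and 22 for D. yakuba, and 4 and 5 for D. virilis. Its levels of 10.9 and 6.99 CPM (D. melanogaster) and of 11.1 and 9.997 (D. yakuba) gave ratios of 1.42 (0.693 to 3.03) and 1.07 (0.649 to 1.82). With 9 tags in D. virilis no ratio was read there, because at least 10 tags over both libraries were required. Along the order of levels, neighbouring libraries of Wnt4 differed beyond counting error only between D. melanogaster wing discs and D. virilis eye-antennal discs, at 6.99 against 1.94 CPM.

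The receptor gene fz2 encodes a high-affinity Wingless receptor whose transcription Wingless represses in the wing disc. It had 242 CPM in the eye-antennal disc of D. melanogaster and 420 in the wing disc. By the combined mapping D. yakuba discs had 239 and 372 CPM, and D. virilis discs had 193 and 237. The eye-antennal over wing ratios were 0.525 (0.469 to 0.587), 0.618 (0.567 to 0.673) and 0.713 (0.630 to 0.806). Of the 8 genes, fz2 was the only one whose interval excluded 1 on the same side in all 3 species, with the lower level in the eye-antennal disc each time. The difference was larger in D. melanogaster than in D. virilis, with a ratio of ratios of 0.736 (0.623 to 0.871), and than in D. yakuba, with 0.850 (0.737 to 0.979). At the leading base shared by D. melanogaster and D. yakuba, the D. melanogaster discs had 215 and 364 CPM and those of D. yakuba had 232 and 366. The leading D. virilis position, placed 198 bases away, had 139 and 144 CPM, so the discs were closer there than over the whole gene. It held 288 of 396 eye-antennal and 450 of 727 wing tags of the genome mapping, shares of 72.7% and 61.9%. The D. virilis difference thus depended on its minor positions as well.

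Minor fz2 positions moved differently from the leading one. A position 1905 bases from the leading one held 7 of 535 fz2 tags in the eye-antennal disc of D. melanogaster, a share of 1.31% (Clopper-Pearson 95% interval 0.528 to 2.68), and 76 of 782 in the wing disc, a share of 9.72% (7.73 to 12.0). No D. yakuba tag was placed there. A position 971 bases away on the other side held 13 of 535 eye-antennal tags and 0 of 782 wing tags in D. melanogaster, where a limit of 3 tags allows a share of up to 0.384% and the Clopper-Pearson interval reaches 0.471%. At the same base D. yakuba had 23 of 1404 eye-antennal tags and 1 of 851 wing tags, shares of 1.64% (1.04 to 2.45) and 0.118% (0.00298 to 0.653). The position on that side thus took a larger share of fz2 tags in the eye-antennal disc of both species. Over the 61 positions of the 8 genes with at least 10 tags in a species, the intervals of the 2 discs' shares lay apart at 10, of which 6 belong to fz2, 3 to arm and 1 to fz3; these positions were picked after their values were seen.

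The receptor gene fz3, itself a transcriptional target of Wingless, had 48.5 and 34.9 CPM in the eye-antennal and wing discs of D. melanogaster. D. yakuba had 72.6 and 78.6, and D. virilis had 47.0 and 35.8. The ratios were 1.26 (0.919 to 1.75), 0.889 (0.742 to 1.07) and 1.13 (0.850 to 1.49), and all 3 intervals held 1. Both D. yakuba libraries stood above the other 4, by 1.50-fold at the nearest step (1.21 to 1.87). The leading positions of D. melanogaster and D. yakuba lay 33 bases apart, and neither species had tags at the other's leading base.

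The inhibitor gene nkd encodes an intracellular protein that binds Dishevelled, and Wingless signalling induces it. It had 158 CPM in the eye-antennal disc of D. melanogaster and 83.3 in the wing disc. By the combined mapping it had 72.4 and 86.5 CPM in D. yakuba, and it had 86.2 and 65.4 in D. virilis by the gene mapping. The ratios were 1.72 in D. melanogaster (1.42 to 2.10), 0.804 in D. yakuba (0.678 to 0.957) and 1.13 in D. virilis (0.919 to 1.39). The discs thus stood in opposite order in D. melanogaster and D. yakuba, each beyond counting error. The eye-antennal library of D. melanogaster was 1.82-fold above the next highest library (1.53 to 2.18). The other 5 libraries did not differ from their neighbours in the order of levels, which does not make all 5 alike. The D. yakuba libraries, not neighbours in that order, differed as given above. At the base that leads in both species, D. melanogaster had 335 and 149 tags and D. yakuba had 382 and 170 (eye-antennal and wing). Per library size these were 152 and 80.1 CPM in D. melanogaster and 66.7 and 76.2 CPM in D. yakuba (within its genome mapping). The discs thus stood in opposite order at the shared base too, but no interval was computed for the ratios there. With scaling by total tags, the D. yakuba ratio of nkd over all its positions was 0.839 (0.707 to 0.998).

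The transducer gene arm had 813 and 586 CPM in the eye-antennal and wing discs of D. melanogaster and 293 and 229 in D. virilis. In D. yakuba it had 7.93 and 5.91 CPM, from 45 and 13 tags. The eye-antennal over wing ratios were 1.26 (1.17 to 1.36) in D. melanogaster, 1.29 (0.685 to 2.61) in D. yakuba and 1.10 (0.987 to 1.23) in D. virilis. The low D. yakuba level went with a missing position: no D. yakuba tag was placed at the base that held 1724 and 1033 tags in D. melanogaster, and the nearest lay 2982 bases off. Past the last arm position on the D. yakuba X chromosome the genome mapping listed no tag for 6569 bases, a stretch not searched in the gene mapping. In D. melanogaster the stretch between the counterparts of those flanking positions is 10676 bases long and held 1776 of the 1795 eye-antennal and 1079 of the 1091 wing tags of arm. At the 3 positions that both species shared, arm had 9 and 8 tags in D. melanogaster (4.08 and 4.30 CPM) and 33 and 10 tags in D. yakuba (5.77 and 4.48 CPM). The D. melanogaster over D. yakuba ratio there was 0.707 in eye-antennal discs (0.298 to 1.51) and 0.960 in wing discs (0.329 to 2.70). These positions leave out the base that leads in D. melanogaster, so the ratios cannot compare the level of arm as a whole.

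Within a species no gene had a replicate, so no test was made, and a gene was counted as differing when the interval bound nearer to 1 was at least 2-fold. None of the 8 genes measured in D. melanogaster met this, where 14.8% of 8134 measured genes did. None of 6 measured in D. yakuba and none of 7 in D. virilis did, against 7.16% of 8118 and 11.4% of 8864 genes. The combined mapping counted 0 members too, against 7.15% of D. yakuba and 11.3% of D. virilis genes. With the milder rule that the interval excludes 1, 3 genes were higher (Wnt6, nkd, arm) and 2 lower (wg, fz2) in the eye-antennal disc of D. melanogaster, where 27.2% of all measured genes were higher and 28.6% lower by that rule. By the gene mapping of D. yakuba, 0 were higher and 1 lower (Wnt5), beside 19.8% and 16.4% of all genes. By that of D. virilis, 1 was higher (Wnt6) and 0 lower, beside 21.6% and 26.0%. The combined mapping of D. yakuba measured all 8 genes, of which 0 were higher and 3 lower (Wnt5, fz2, nkd), beside 19.9% and 16.7%. That of D. virilis had 2 higher (Wnt6, arm) and 1 lower (fz2), beside 22.4% and 25.1%. Nothing particular to the 8 genes is read from these counts. With scaling by total tags in place of TMM, the intervals of fz3 in D. melanogaster (1.02 to 1.94), Wnt6 in D. yakuba (1.01 to 1.40) and fz3, nkd and arm in D. virilis (1.01 to 1.77, 1.09 to 1.65 and 1.17 to 1.46) lay above 1 as well, the D. virilis ratio of wg turned to 1.16 (0.745 to 1.79), and the 3 fz2 intervals stayed below 1. By the gene mapping, the median log2 ratio of the measured members was 0.33, -0.049 and 0.17 in the 3 species, beside -0.0079, 0.019 and -0.046 over all measured genes. By the combined mapping the member median was -0.24 in D. yakuba and 0.20 in D. virilis. No median over all genes was computed for that mapping.

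**Figure D3:**
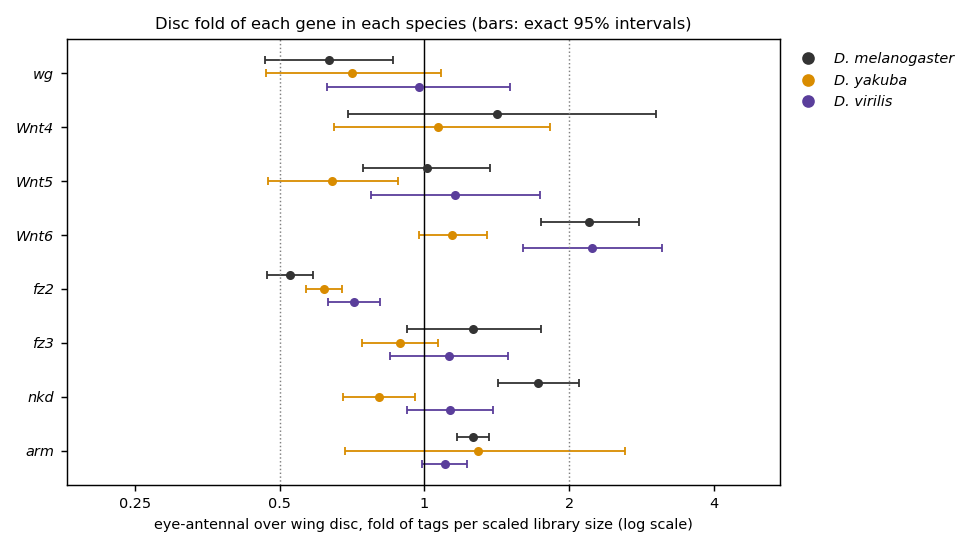
Eye-antennal over wing ratio of each gene in each species on a log scale, with exact 95% intervals that cover counting error only; dotted lines mark 2-fold either way, and fz2 in every species and nkd in D. yakuba come from the combined mapping. All 3 fz2 intervals lie below 1, the Wnt6 intervals of D. melanogaster and D. virilis lie above it, and the nkd intervals of D. melanogaster and D. yakuba lie on opposite sides.

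With the species as replicates, edgeR's quasi-likelihood test (species as a block) called 40 of 5953 genes at an adjusted p under 0.05, which is 0.672%. Of the 7 members it could test by the gene mapping, 0 were called, and 1 (Wnt6) had an unadjusted p under 0.05. The Wnt6 log2 fold was 0.89 ± 0.32 (SE), with an unadjusted p of 0.0279 and an adjusted p of 0.395, and the eye-antennal level was higher in 3 of 3 species. For wg the log2 fold was -0.33 ± 0.31 (adjusted p = 0.771), and for arm it was 0.36 ± 0.25 (adjusted p = 0.692). By the combined mapping fz2 had a log2 fold of -0.64 ± 0.24, with an unadjusted p of 0.0339 and an adjusted p of 0.452, and it was lower in the eye-antennal disc in 3 of 3 species. There nkd had 0.29 ± 0.31 (adjusted p = 0.811), and that mapping called 0.462% of 6711 genes. Wnt4, Wnt5 and fz3 had log2 folds of 0.31, -0.066 and 0.18, with adjusted p-values of 0.881, 0.963 and 0.867. The median over the 7 members was 0.18, beside 0.018 over all genes tested.

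Between species the same fit, with disc as a block, compared levels over both discs. A difference in level cannot be told apart there from a difference in tag position, gene model or mapping. In D. melanogaster over D. yakuba 3 of 7 members were called higher and 0 lower, where 17.6% of all genes tested were called higher and 34.1% either way. The arm log2 fold of 6.47 ± 0.37 (edgeR adjusted p = 3.57e-04) and that of fz2, 8.61, are values of the gene mapping, in which D. yakuba lacks the positions of these genes described above. The arm value ran from 6.35 to 7.88 over 8 settings, and fz2 stood at -0.12 ± 0.29 (adjusted p = 0.795) by the combined mapping, which called 31.1% of genes either way. The third, wg, was higher in D. melanogaster by a log2 fold of 1.44 ± 0.38 (edgeR adjusted p = 0.0247). That value too goes with a change of position: D. melanogaster had 1 and 0 tags and D. yakuba 37 and 21 tags (eye-antennal and wing) at the base that leads in D. yakuba, and D. yakuba had 0 at the base that leads in D. melanogaster. The 4 positions both species shared include the base that leads in D. yakuba but not the base that leads in D. melanogaster. They held 4 and 6 tags of wg in D. melanogaster and 65 and 32 in D. yakuba (eye-antennal and wing). The D. melanogaster over D. yakuba ratios there were 0.160 (0.0422 to 0.428) in eye-antennal discs and 0.225 (0.0769 to 0.545) in wing discs. Because of that choice of positions, these ratios cannot compare the level of wg.

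Of the ligands read at the same leading base in D. melanogaster and D. yakuba, none was called between them. The log2 folds were 0.64 ± 0.38 for Wnt5, -0.46 ± 0.39 for Wnt6 and -0.43 ± 0.57 for Wnt4, with edgeR adjusted p-values of 0.247, 0.406 and 0.607. The fz3 log2 fold was -1.05 ± 0.34 (adjusted p = 0.0524), and nkd by the combined mapping had 0.33 ± 0.38 (adjusted p = 0.558).

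In D. melanogaster over D. virilis 5 of 7 members were called higher and 0 lower, where 24.7% of genes tested were called higher and 48.6% either way. The log2 folds were 1.29 ± 0.29 for arm (edgeR adjusted p = 0.00983), 1.33 ± 0.40 for Wnt6 (0.0297), 2.17 ± 0.67 for Wnt4 (0.0333) and 1.19 ± 0.38 for wg (0.0369). The call of fz2, at 6.10 in the gene mapping, ended in the combined mapping, at 0.42 ± 0.30 (adjusted p = 0.277), where 47.4% of genes were called either way. Wnt5 at 1.01 ± 0.39 (adjusted p = 0.0690) and fz3 at -0.11 ± 0.34 (0.811) were not called. By the genome mapping alone Wnt6 had 0.57 (adjusted p = 0.257), wg had 0.55 (0.256) and Wnt4 had 2.03 (0.0501), which ended those calls. That mapping held 100 and 59 D. virilis tags of Wnt6, against 101 and 59 in the gene mapping, and 34 and 51 of wg, against 39 and 52. It left 31.3% and 27.4% of D. virilis tags without a D. melanogaster gene, against 13.6% and 12.8%. The cause of the lower folds was not tested. With DESeq2 the calls of wg and Wnt4 ended as well, at adjusted p-values of 0.0657 and 0.0509, and at the leading position alone that of Wnt6 did, at 0.0542.

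In D. yakuba over D. virilis, where 26.1% of genes tested were called higher and 25.8% lower, 2 members were called higher and 2 lower. The higher ones were Wnt6, at a log2 fold of 1.78 ± 0.40 (edgeR adjusted p = 0.00962), and Wnt4, at 2.60 ± 0.66 (0.0152). The lower ones were arm and fz2, at -5.18 and -2.51 in the gene mapping, where most fz2 tags of both species do not stand under fz2; by the combined mapping fz2 had 0.54 ± 0.29 (adjusted p = 0.171), where 51.1% of genes were called either way. The Wnt6 call ended by the genome mapping, at 1.07 (adjusted p = 0.0550), and held under the other 7 of 8 settings. Wnt4 was called against D. virilis in D. yakuba under all 8 settings tried and in D. melanogaster under 6 of 8, from 9 D. virilis tags in all.

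The rest of the pathway was read from 41 further genes in 6 roles, of which 30 could be tested across species. The test called 0 of them higher and 1 lower in the eye-antennal disc, and 5 had an unadjusted p under 0.05. The lower one was vg, which encodes the selector factor of the wing and is a Wingless target there. It had 6, 3 and 4 tags in the eye-antennal libraries of the 3 species (D. melanogaster first, D. virilis last), against 36, 32 and 145 in the wing libraries, and a log2 fold of -4.04 ± 0.55 (edgeR adjusted p = 0.0405). Its call ended without the D. yakuba libraries (adjusted p = 0.0844), by the genome mapping (0.0822) and at the leading position alone (0.129). The median log2 fold of the 30 genes was 0.15, beside 0.018 over all genes tested.

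Among other disc targets of Wingless, sens, a factor of sensory organ precursors, had 36, 82 and 15 eye-antennal tags, against 13, 10 and 4 wing tags, in the same order of species, with a log2 fold of 1.66 ± 0.50 (adjusted p = 0.280). The target ct, which encodes a homeodomain factor of the wing margin and sensory organs, was at 1.41 ± 0.40 (adjusted p = 0.240). In the destruction complex, Apc had a log2 fold of 0.81 ± 0.28 (adjusted p = 0.356) and its relative Apc2 had -0.94 ± 0.45 (0.553). Of the nuclear factors, pan, the fly TCF, had 0.74 ± 0.33 (adjusted p = 0.515) and lgs, which links Armadillo to Pygopus, had 0.73 ± 0.25 (0.365). Among receptors, arr, the co-receptor of the LRP family, had -0.60 ± 0.27 (adjusted p = 0.515), and the remaining ligand tested, Wnt2, had -0.57 ± 0.35 (0.645). None of these 8 values passed the test. Within single species, by the 2-fold interval rule, Drl-2 was higher and dnt and vg were lower in the eye-antennal disc of D. melanogaster, vg was lower in that of D. yakuba, and in that of D. virilis ct was higher and Apc2 and vg were lower.

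**Figure D4:**
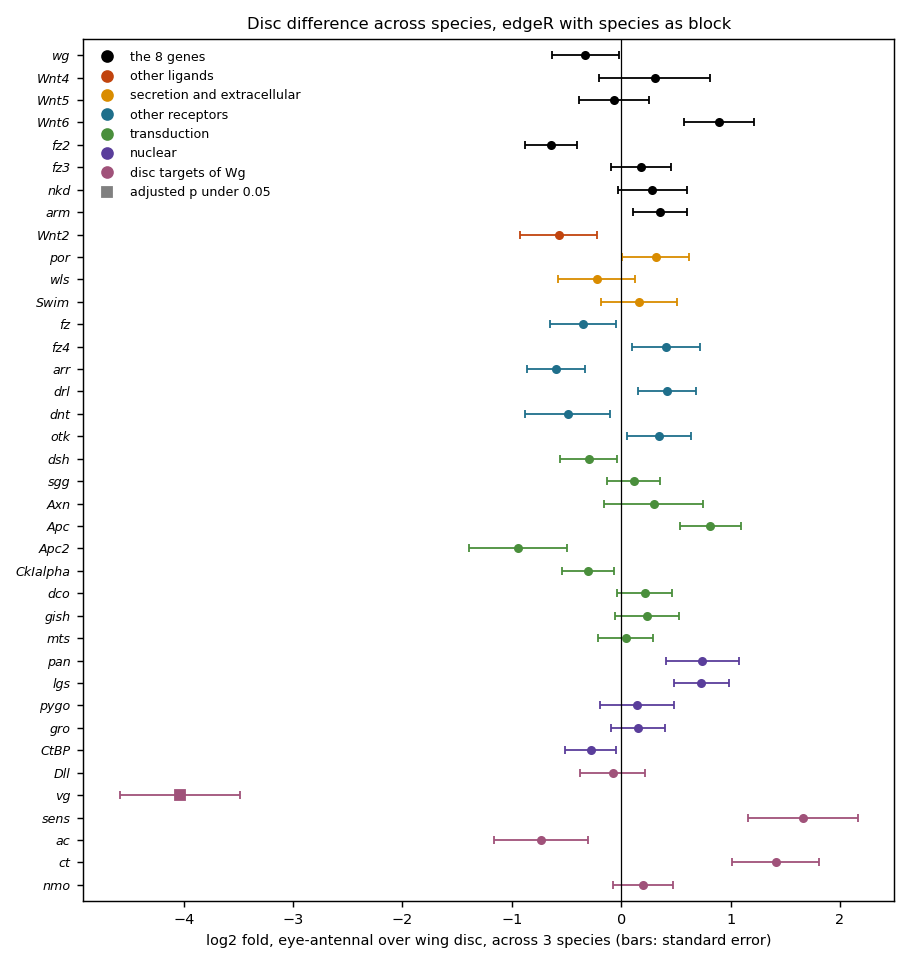
Log2 fold of eye-antennal over wing discs across the 3 species for the 8 genes (top, black; fz2 and nkd by the combined mapping) and 30 other Wnt pathway genes by role, with standard errors from edgeR. Only vg, drawn as a square at -4.04, has an adjusted p under 0.05; most others lie between -1 and 1.

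Genes with disc ratios most like those of a member were sought by the root mean squared difference of the 3 species' log2 ratios, among 3543 genes with at least 50 tags in every species. Nearest to Wnt6 were ATP8A at 0.11, Pus10 at 0.12 and CG2017 at 0.16. Within 0.1 lay 0 genes for Wnt6, 8 for wg, 8 for Wnt5, 33 for fz3 and 22 for arm. Nearest to wg were TH1 at 0.028, RpL24 at 0.071 and WRNexo at 0.073. Nearest to Wnt5 were alpha-PheRS at 0.024, spd-2 at 0.063 and CG5001 at 0.070. Nearest to fz3 were crb at 0.042, simj at 0.051 and Krn at 0.052. Nearest to arm were BicD at 0.032, FBgn0028420 at 0.036 and or at 0.040. Each rests on 3 ratios, and their counting error was not taken into account. The arm ratio of D. yakuba, for example, had an interval of 0.685 to 2.61. Wnt4, fz2 and nkd had too few tags in a species for this measure in the gene mapping.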

How the data were processed

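Per the file headers, each deposited line gives the counts of tags at 1 position with the gene the authors assigned; the values are whole numbers with unequal totals, so they are raw. The submitters' processing notes name Bowtie 0.12.1. Builds, mismatch limits and how multiply matching tags were treated are not given in the sources. Strand is not recorded, so a gene's sum holds tags of both strands, and an overlapping antisense transcript cannot be told apart. Between 0.886% and 3.09% of a library's tags carried no gene. Together with tags of genes without a D. melanogaster counterpart, 5.54% and 5.62% of D. yakuba tags and 13.6% and 12.8% of D. virilis tags (eye-antennal and wing) could not enter the tests across species by the gene mapping. Unpaired and filtered genes were left out as well. Those tests kept 1682272 and 1431122 tags of D. melanogaster, 4469788 and 1736394 of D. yakuba, and 1553793 and 2382443 of D. virilis.

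Counts were summed per gene and library; D. yakuba and D. virilis genes took the D. melanogaster identifier of the gene mapping. The identifier of wg in the files is an older one. Of 12681 D. melanogaster identifiers, 92.7% had a symbol. Ratios within a species used TMM factors and exact conditional binomial 95% intervals, which, like Poisson intervals, cover counting error only, since reads carry no molecular identifiers. Across species, 7807 paired genes entered, 5953 passed filterByExpr, and edgeR 4.0.16 (R 4.3.3) fitted species and disc, with Benjamini-Hochberg adjustment over all genes tested. DESeq2 1.42.0 was an alternative. The labels do not say that discs were collected separately, so p-values measure the spread between these libraries. In simulated counts for the disc contrast, drawn for genes of the real libraries, the script was checked before use.

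The 8 genes, the pathway and marker lists and the rule for named genes (all 8 genes; of the pathway list those past the threshold, those counted in the same disc in several species, and the 2 with the largest mean log2 ratio in a role; 3 nearest genes by disc ratio) were chosen with earlier results of these data known. The gene ct and the pathway genes counted within single species are named beyond that rule, after their values were seen. Of the 41 pathway genes, 40 had an identifier; dally, otk2 and slmb, and the markers ap and Mhc, had no tags under their current identifiers.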

Additional observations from a re-analysis of the deposited data

Results flagged for a closer look

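The disc ratio of 2 genes lay above 1 in some species and below 1 in others, with an interval of the ratio of ratios that excludes 1. Only nkd in D. melanogaster and D. yakuba had intervals of the disc ratios themselves on opposite sides of 1. The Wnt5 intervals of D. melanogaster and D. virilis and the nkd interval of D. virilis held 1. With 1 library per species and disc the difference was not tested, and the intervals cover counting error only. For Wnt5 the eye-antennal over wing ratio of D. melanogaster was 1.57 times that of D. yakuba (1.01 to 2.44), and the ratio of D. yakuba was 0.553 times that of D. virilis (0.330 to 0.928). For nkd by the combined mapping, the ratio of D. melanogaster was 2.14 times that of D. yakuba (1.65 to 2.78), and that of D. yakuba was 0.698 times that of D. virilis (0.533 to 0.916).

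Tags of fz2 and nkd stood in the genome mapping but not under those genes in the gene mapping. For fz2 these were 1404 and 851 tags in the D. yakuba eye-antennal and wing libraries and 393 and 724 in those of D. virilis. For nkd they were 426 and 198 tags in D. yakuba.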

How the results depend on the processing

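The count of genes called between the discs across species, 40, moved with the processing: 24 with DESeq2 size factors, 205 with DESeq2's Wald test, 104 without a filter on low counts, and 9 when each gene was read at its leading position alone. Leaving out the libraries of a species gave 32 to 130 calls (61 without D. melanogaster, 32 without D. yakuba, 130 without D. virilis). It was 51 with scaling by total tags, 35 by the genome mapping and 31 by the combined mapping. The species served as the replicate block; without the block 0 genes were called by edgeR, with 128 at an unadjusted p under 0.05. No member was called in those of the 12 fits that tested it, which was 2 for nkd, 11 for fz2 and all 12 for the other 6 genes. Counts of genes differing within a species (1201, 581 and 1011 in D. melanogaster, D. yakuba and D. virilis) became 4538, 2942 and 4213 when the bound had only to exclude 1. With at least 50 tags they became 770 in D. melanogaster and 569 in D. virilis, and the D. virilis genome mapping gave 670. Scaling by total tags moved all log2 ratios up by 0.15, 0.059 and 0.25 in the 3 species, and changed the split of eye-antennal against wing calls to 778 and 436 in D. melanogaster (648 and 553 with TMM) and to 711 and 311 in D. virilis (599 and 412); with at least 50 tags the splits were 323 and 447, and 221 and 348. Under that scaling the log2 ratio of arm was 0.49 in D. melanogaster and 0.39 in D. virilis.

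Several member values changed sign, and the cause was not tested beyond the positions described above. For Wnt5 the disc log2 fold was 0.0027 with total scaling, 0.048 at the leading position and ran between -0.25 and 0.19 when a species was left out (0.19 without D. yakuba), and its D. yakuba over D. virilis value was -0.34 by the genome mapping. For fz3 the disc value was -0.072 by the genome mapping, and D. melanogaster over D. virilis gave 0.32 at the leading position and 1.19 by the genome mapping. For fz2, D. melanogaster over D. virilis was -0.28 by the genome mapping, D. melanogaster over D. yakuba was -0.19 by the genome mapping and -0.12 by the combined mapping, and D. yakuba over D. virilis was 0.54 by the combined mapping. At shared positions only, an alternative added after seeing the data, log2 ratios of D. melanogaster over D. yakuba were -2.49 and -2.06 for wg and -0.44 and -0.042 for arm (eye-antennal and wing), and -0.0089 for fz2 and 0.26 for fz3 in wing discs. For wg, arm and fz3 those positions leave out the base that leads in D. melanogaster, so their values cannot compare gene levels. The D. virilis genome mapping held few tags of fz3 (17 and 36), nkd (23 and 33) and arm (49 and 54), in eye-antennal and wing discs. Leaving out a disc leaves no residual degrees of freedom for the species contrasts, so it was not run. Wnt4 had 4 and 5 tags in D. virilis, too few for a ratio there.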
